A study of Homo sapiens with 53 samples.

Results

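Wide CTCF sites without MBD3 were the CTCF peaks of solvent-treated HEK293T cells that covered 500 bp or more and touched no MBD3 interval called in the same cells. They were found by merging the intervals of the DMSO CTCF list that overlapped or abutted, keeping merged peaks of chromosomes 1 to 22 and X, and dropping those that shared 1 bp or more with any row (called interval) of the DMSO MBD3 list. This left 10108 sites out of 98272 CTCF peaks, or 10.3%. Peaks of that width numbered 28208, so 35.8% of them carried no MBD3 interval. The other classes were 18100 wide peaks with MBD3, 51659 narrow peaks without it and 18405 narrow peaks with it. The sites were thus chosen by measured values of the DMSO CTCF and DMSO MBD3 lists, and values from these lists are given below as descriptions.

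HEK293T is a human embryonic kidney line. ChIP-seq, which sequences the DNA fragments recovered with an antibody, was carried out after 72 h in 30 µM BPK-25 or in DMSO, the solvent. Anti-CTCF and anti-MBD3 antibodies were used in the parental cells, and edited derivatives, each with a Flag tag on 1 of the TET proteins (TET1, TET2, TET3), with an anti-Flag antibody. The groups were therefore BPK-25 CTCF, BPK-25 MBD3, BPK-25 TET1-Flag, BPK-25 TET2-Flag and BPK-25 TET3-Flag, each against its DMSO counterpart, with sonicated input for each line and treatment. The 53 samples comprised 29 immunoprecipitates and 24 inputs. Each immunoprecipitate group had 3 labelled replicates, except TET2-Flag in DMSO with 2. The labels do not say whether a Flag line is 1 clone, how the tag was introduced or whether replicates were separate cultures. The processed data are 10 peak lists, 1 per target and treatment, taken as pooled over replicates, so no value below has a spread between replicates and no test between treatments was possible.

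CTCF is a zinc-finger protein that binds a long DNA motif, blocks enhancers at insulators and stops cohesin at the anchors of chromatin loops. MBD3 is a subunit of NuRD, a complex that joins a nucleosome remodelling ATPase with histone deacetylases. TET1, TET2 and TET3 are dioxygenases that oxidise 5-methylcytosine, the first step of active DNA demethylation, and binding of CTCF to some of its sites is hindered by methylation. BPK-25 is a small molecule reported in human T cells to lower the protein level of NuRD subunits. The series asks what NuRD does at CTCF sites.

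Depth differed between the lists. The lowest local background of a list, which follows the depth of its pooled libraries, was 2.58 fragments for BPK-25 CTCF against 3.68 for DMSO CTCF, and 2.57 for BPK-25 MBD3 against 3.21 for DMSO MBD3. It was 1.75 for BPK-25 TET1 against 1.85 for DMSO TET1, 1.05 for BPK-25 TET2 against 1.25 for DMSO TET2, and 1.65 for BPK-25 TET3 against 1.7 for DMSO TET3. This value is called genome background here, and pileups (fragments over a summit) are given as multiples of it. At the median local background of the wide sites without MBD3, a summit was called from 10 fragments in BPK-25 CTCF, 3.88 times the genome background, and from 13 fragments in DMSO MBD3, 4.05 times. In both TET3 lists 10 fragments were needed, 6.08 times the genome background in BPK-25 and 5.9 times in DMSO. These limits hold at the median local background and are higher at sites where the local background is higher. Weaker binding, or binding in few of the cells, was not detectable at this depth, and fewer bound cells and less binding per cell cannot be told apart.

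The wide sites without MBD3 were strong CTCF peaks of moderate width. Their width had a median of 601 bp (quartiles 549 and 687, highest 1959). The authors' fold enrichment, the ratio of pileup to local background at the summit, had a median of 46.3 (quartiles 29.5 and 67.2) and ran from 2.36 to 291. The pileup had a median of 85.4 times the genome background, with quartiles of 51 and 134. In the wide peaks with MBD3 the median width was 717 bp, the median fold enrichment 63.3 and the median pileup 133 times the genome background. In the narrow peaks without MBD3 these values were 264 bp, 8.71 and 14.1 times. The summit of the wide sites without MBD3 lay at a median of 49.9% of the width (quartiles 38.2 and 61.8). The quartiles were similar in wide peaks with MBD3, at 37 and 62.8, and closer to the middle in narrow peaks without MBD3, at 45.7 and 53.4.

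When all 98272 CTCF peaks were divided into deciles of fold enrichment, with 1 the weakest, 7563 of the wide sites without MBD3 (74.8%) fell into deciles 8 to 10, where fold enrichment was 29.6 or more. Decile 10 held 1249 of them, against 7153 wide peaks with MBD3, and decile 1 held 27. In decile 8, where the median fold enrichment was 39.7 in the sites without MBD3 and 39.4 in wide peaks with MBD3, the median widths were 597 and 720 bp. Decile 10 is open at the top: its median width was 622 bp, against 754 bp in wide peaks with MBD3, and its median fold enrichment 100, against 131. Near the width limit, 48 sites of exactly 500 bp had a median fold enrichment of 43.8, and 63 peaks of 499 bp without MBD3, just outside the rule, had 29. The most significant sites of exactly 500 bp had fold enrichments of 89.9 (chromosome 8, 20233699 to 20234198) and 99.5 (chromosome 9, 38087868 to 38088367). Those of 499 bp had 80.7 (chromosome 10, 33297593 to 33298091) and 134 (chromosome 7, 35956448 to 35956946).

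Most of the wide sites without MBD3 had 1 summit. There were 6853 of these (67.8%), with a median width of 581 bp and a median fold enrichment of 49.7. A further 2970 sites (29.4%) had 2 summits, 256 had 3, 23 had 4 and 6 had 5. In all, 3255 (32.2%) had 2 or more summits, against 9220 wide peaks with MBD3 (50.9%). In decile 8 the shares were 31.2% and 51.1%. In the sites with 2 summits the second was a minor one: its pileup was a median of 0.102 of that of the stronger (quartiles 0.059 and 0.218), and the fold enrichments had medians of 3.7 and 38.6. The spacing was narrow, with a median of 316 bp and quartiles of 288 and 352. In 302 of the 2970 sites (10.2%) the weaker summit reached 50% or more of the pileup of the stronger.

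MBD3 was distant from most of these sites under DMSO. The gap from the site to the nearest DMSO MBD3 row had a median of 12860 bp, with quartiles of 4218 and 34689, and ran from 2 bp to 1520505 bp. It was 500 bp or less at 341 sites and over 100000 bp at 778. Of all CTCF peaks, 37.1% overlapped a DMSO MBD3 row, and the rule set the share to 0 here. The wide peaks that did carry MBD3 were mostly well above the calling limit. At 15241 of them with summits within 100 bp, the MBD3 pileup had a median of 12.5 times the genome background, and it was under 5 times at 655 (4.3%).

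The BPK-25 CTCF and BPK-25 MBD3 lists each covered about the same share of the wide sites without MBD3. These lists were long, with 323952 rows in BPK-25 CTCF against 118288 in DMSO CTCF, and 325529 in BPK-25 MBD3 against 114788 in DMSO MBD3. How much of the overlap follows from list length was not tested; the density of summits away from the sites is given further on. A BPK-25 CTCF row overlapped 2170 sites, or 21.5% (95% exact Clopper-Pearson interval 20.7 to 22.3), against 39.5% of all CTCF peaks. A BPK-25 MBD3 row overlapped 2321 sites, or 23% (22.1 to 23.8), against 40.5% of all CTCF peaks. Both shares were far lower than in wide peaks with MBD3, at 82.2% for BPK-25 CTCF and 84.3% for BPK-25 MBD3. They were closer to those of narrow peaks without MBD3, at 16.6% and 17.1%. The intervals cover counting error only. With rows of a -log10 q of at least 10 alone, the shares were 4.06% for BPK-25 CTCF and 4.84% for BPK-25 MBD3. Parental cells of a treatment have a common set of inputs in the labels, so the CTCF and MBD3 lists of a treatment share controls and their values are set side by side only.

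TET rows went different ways at these sites. A BPK-25 TET3 row overlapped 829 sites, or 8.2% (7.67 to 8.75), and a DMSO TET3 row 240, or 2.37% (2.09 to 2.69). By this 1 bp overlap the shares of all CTCF peaks were 7.57% for BPK-25 TET3 and 8.07% for DMSO TET3, and those of wide peaks with MBD3 23.7% (23.1 to 24.3) for BPK-25 TET3 and 24.3% (23.6 to 24.9) for DMSO TET3. In narrow peaks without MBD3 they were 1.31% (1.22 to 1.41) and 0.59% (0.526 to 0.66). TET1 showed the opposite order, as did its whole list, with 552 rows in BPK-25 and 6355 in DMSO. There were 8 sites, or 0.0791% (0.0342 to 0.156), that overlapped a BPK-25 TET1 row and 163, or 1.61% (1.38 to 1.88), a DMSO TET1 row, against 0.189% and 4.03% of all CTCF peaks. TET2 rows were rare, at 2 sites for BPK-25 TET2 (0.0198%) and 19 for DMSO TET2 (0.188%), against 0.168% and 0.832% of all CTCF peaks. These differences between treatments rest on 1 pooled list each. By summits within 100 bp, BPK-25 TET3 was above DMSO TET3 in each of these sets: 7.69% (7.17 to 8.22) against 1.73% (1.49 to 2) of the wide sites without MBD3, 18.3% (17.8 to 18.9) against 9.84% (9.41 to 10.3) of wide peaks with MBD3, and 5.9% (5.75 to 6.05) against 3.8% (3.68 to 3.92) of all CTCF peaks. Narrow peaks with MBD3 had the other order, with BPK-25 TET3 at 6.06% (5.72 to 6.41) and DMSO TET3 at 8.52% (8.12 to 8.93). The TET3 order at the wide sites without MBD3 was not kept under a stricter overlap. Rows that covered 50% or more of a site were found at 0.218% of sites for BPK-25 TET3 and 0.287% for DMSO TET3. No interval was computed for these small shares, so which of them is the higher is left undecided.

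**Figure D1:**
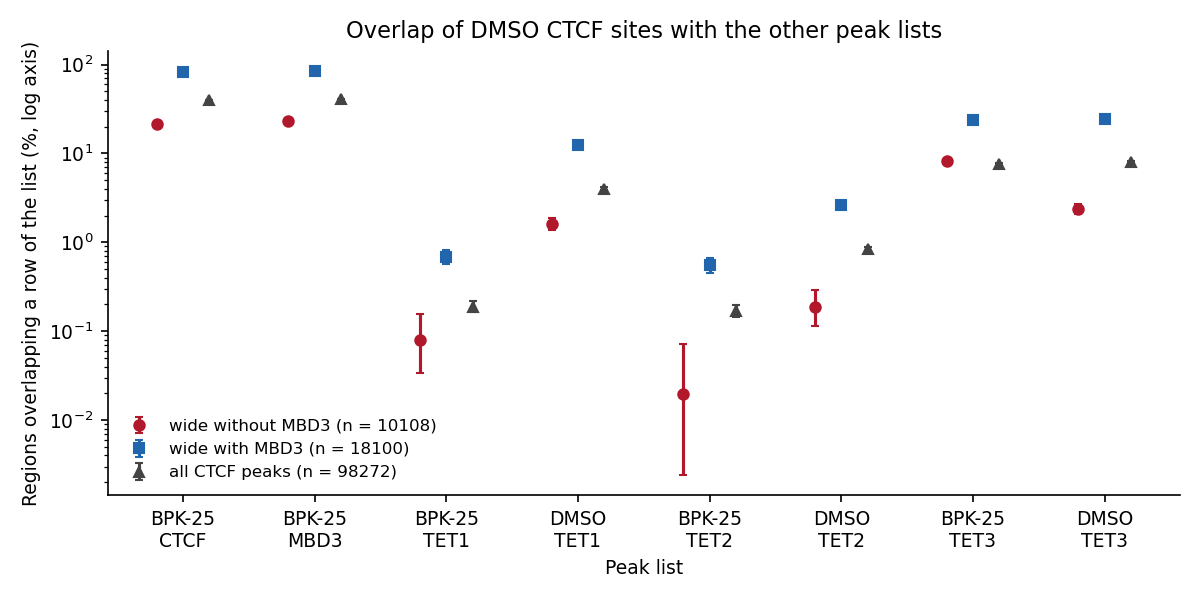
Share of DMSO CTCF peaks (percent, log axis) that overlapped a row of each of 8 other peak lists, for wide sites without MBD3 (circles), wide sites with MBD3 (squares) and all CTCF peaks (triangles). Bars are exact 95% intervals and cover counting error only. The circles lie under the squares in every list, and BPK-25 TET3 (8.2%) lies above DMSO TET3 (2.37%) among the circles.

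Most of the wide sites without MBD3 were in no other list. This was so for 6448 sites (63.8%), while 1780 were in 1 other list, 1697 in 2, 158 in 3, 22 in 4, 2 in 5 and 1 in 6. A TET row of any kind overlapped 1093 sites (10.8%). These counts were not made over all CTCF peaks, so whether they are particular to these sites cannot be said. The rule also leaves out the DMSO MBD3 list, which 37.1% of all CTCF peaks overlapped. The 6448 sites were strong CTCF peaks all the same, with a median fold enrichment of 44.6 (quartiles 29.5 and 63.2), a median pileup of 77.7 times the genome background and a median gap to MBD3 of 16166 bp.

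Where a BPK-25 CTCF row did overlap a wide site without MBD3, its summit was often off the DMSO summit. The distance had a median of 172 bp (quartiles 44 and 324), was over 300 bp at 650 of the 2170 sites, and was within 100 bp at 844 (38.9%). For wide peaks with MBD3 the median distance was 45 bp and 69.5% lay within 100 bp. Summits of BPK-25 MBD3 rows lay at a median of 161 bp (35 and 317), with 956 of 2321 (41.2%) within 100 bp. Counted by shared summits, BPK-25 CTCF was found at 8.35% (7.82 to 8.91) of the wide sites without MBD3 and at 57.2% (56.4 to 57.9) of the wide peaks with MBD3. In narrow peaks without MBD3 this share was 10.8% (10.6 to 11.1), above that of the wide sites without MBD3.

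Around the DMSO summits, BPK-25 CTCF summits were 2.17 times as dense as farther out. Per 1000 sites and 200 bp there were 83.5 BPK-25 CTCF summits within 100 bp of the DMSO summit, and 38.5 at 1001 to 2000 bp. A second, smaller excess lay at 301 to 500 bp, with 54.4 per 200 bp, against 46.3 at 101 to 300 bp. BPK-25 MBD3 had the same outline, with 94.2 in the centre, 56.6 at 301 to 500 bp and 40 at 1001 to 2000 bp. At wide peaks with MBD3 the central density of BPK-25 CTCF was 572, 5.78 times the density of 99 at 1001 to 2000 bp. The second excess was seen there too, with 215 at 301 to 500 bp and 200 at 101 to 300 bp. BPK-25 TET3 was much more sharply placed: 76.5 summits per 1000 wide sites without MBD3 in the centre, 1.88 at 101 to 300 bp and 1.49 at 1001 to 2000 bp, a ratio of 51.2. DMSO TET3 had 17.2, 2.62 and 1.42, a ratio of 12.1. In wide peaks with MBD3 these ratios were 31.1 for BPK-25 TET3 and 12.2 for DMSO TET3.

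**Figure D2:**
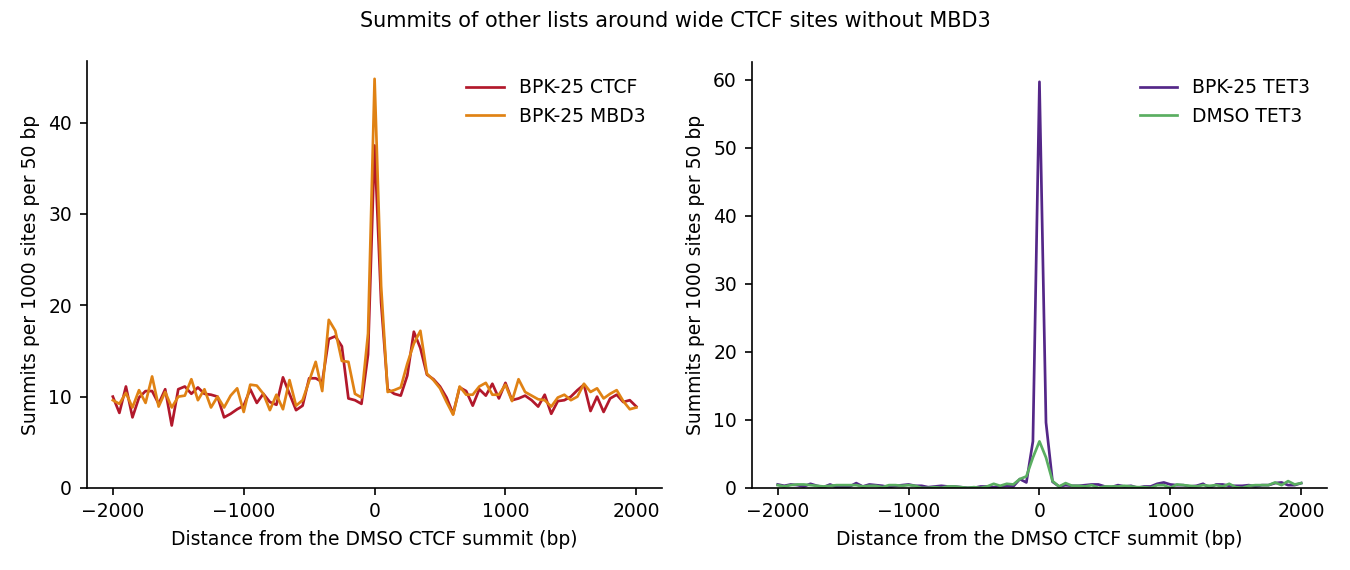
Density of summits (per 1000 sites and 50 bp) by distance from the DMSO CTCF summit (bp) at the 10108 wide sites without MBD3, for BPK-25 CTCF and BPK-25 MBD3 on the left and BPK-25 TET3 and DMSO TET3 on the right. The left curves share a central peak, lower shoulders beyond 300 bp on both sides and a level floor, whereas the right curves fall to near 0 outside the centre.

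At shared summits the BPK-25 CTCF pileup was a small part of the DMSO one. At the 844 sites it had a median of 6.98 times the genome background in BPK-25 (quartiles 5.43 and 8.92), against 116 times in DMSO (52.9 and 208). The ratio of the 2 had a median of 0.0596, and the BPK-25 value was the higher at 28 sites. The fold enrichments had medians of 3.63 in BPK-25 and 51.4 in DMSO. As the sites entering here had to pass the calling limit in BPK-25, weaker remnants at other sites are not in these medians. The BPK-25 MBD3 pileup at its 956 shared summits was 7.01 times the genome background (5.84 and 8.96). In wide peaks with MBD3 the BPK-25 CTCF pileup was higher, with a median of 11.3 times (8.15 and 15.5) at 10345 shared summits, against 174 times (23.9 and 356) in DMSO. The median ratio there was 0.0578, so a low ratio was not particular to the wide sites without MBD3. In narrow peaks without MBD3 the median ratio was 0.737, with pileups of 7.76 times in BPK-25 and 9.78 times in DMSO.

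**Figure D3:**
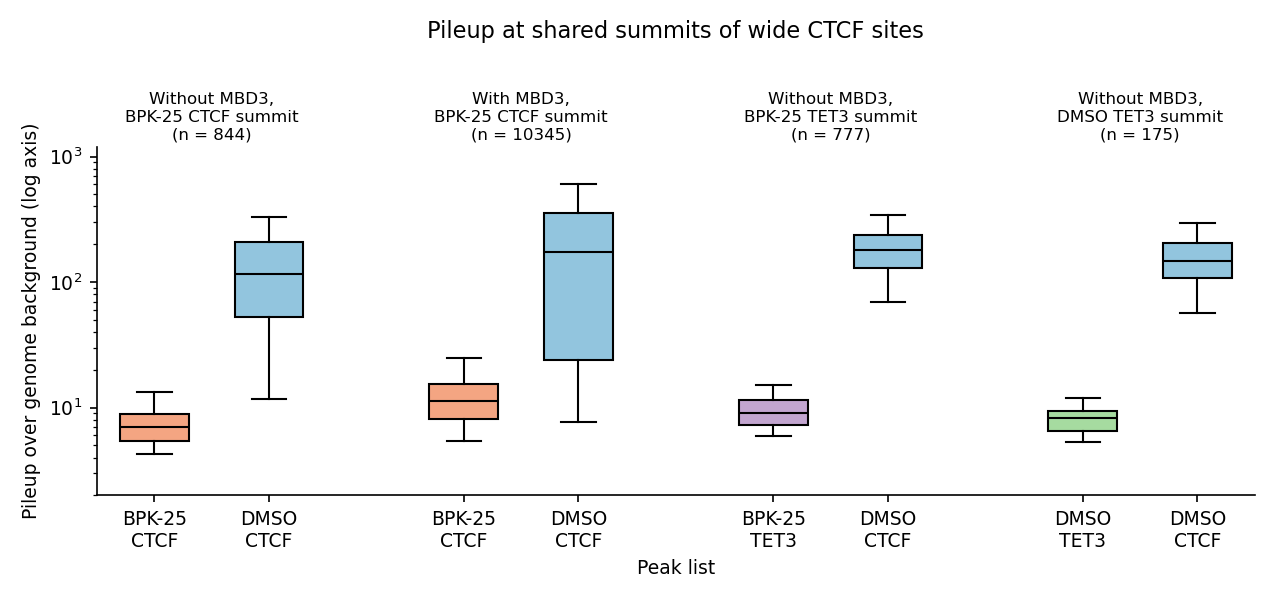
Pileup over genome background (log axis) at summits within 100 bp of the DMSO CTCF summit, for wide sites without MBD3 and, second from left, with MBD3. Boxes give quartiles and the median and whiskers the 5th and 95th percentiles; at wide sites without MBD3 the median was 6.98 in BPK-25 CTCF against 116 in DMSO CTCF, and 9.12 in BPK-25 TET3.

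The BPK-25 CTCF share was lower in wide sites without MBD3 than in wide peaks with MBD3 in each of the 10 deciles of DMSO CTCF strength. In decile 10, where wide peaks with MBD3 were the more enriched as given above, the share was 25.5% (23.1 to 28.1), against 80.8% (79.8 to 81.7) in wide peaks with MBD3 and 9.34% in narrow peaks without it. In decile 9 it was 17.5% (16.3 to 18.9), against 64.7% (62.9 to 66.4) and 5.55%. In decile 8 it was 18% (16.7 to 19.4), against 76.4% (74.2 to 78.4) and 7.31%. The weakest deciles had the highest shares but few sites: 21 of the 27 sites of decile 1 (77.8%, 57.7 to 91.4) overlapped a BPK-25 CTCF row. Counted by summits within 100 bp, the shares of wide sites without MBD3 were 6.32% in decile 8, 7.11% in decile 9 and 15.7% in decile 10, and those of wide peaks with MBD3 38.2%, 37.7% and 67.7%. Those of narrow peaks without MBD3 were 5.18%, 4.34% and 8.7%, closer to the wide sites without MBD3 than by overlap.

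The BPK-25 TET3 share increased with CTCF strength over deciles 7 to 10 of the wide sites without MBD3. It was 1.42% (0.882 to 2.17) in decile 7, 4.42% (3.72 to 5.22) in decile 8, 10.9% (9.84 to 12) in decile 9 and 24.2% (21.8 to 26.7) in decile 10. For DMSO TET3 the same deciles had 0.88%, 1.63%, 3.18% and 4.72% (3.62 to 6.05 in decile 10). In decile 10 the wide peaks with MBD3 had 35.4% (34.3 to 36.5) for BPK-25 TET3 and 17.6% (16.8 to 18.5) for DMSO TET3, and the narrow peaks without MBD3 20.8% and 3.54%. By 1 bp overlap, DMSO TET3 in the wide peaks with MBD3 had its higher shares in the weaker deciles, with 24% in decile 8 and 35% in decile 1. By summits within 100 bp these were 7.59% and 13.5%, with 9.8% in decile 10. Few wide sites without MBD3 lay in the weaker deciles, so their order is left undecided. DMSO TET3 was at 0 of 27 (0 to 12.8%) in decile 1 and 4.35% (1.43 to 9.85) of 115 in decile 4.

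**Figure D4:**
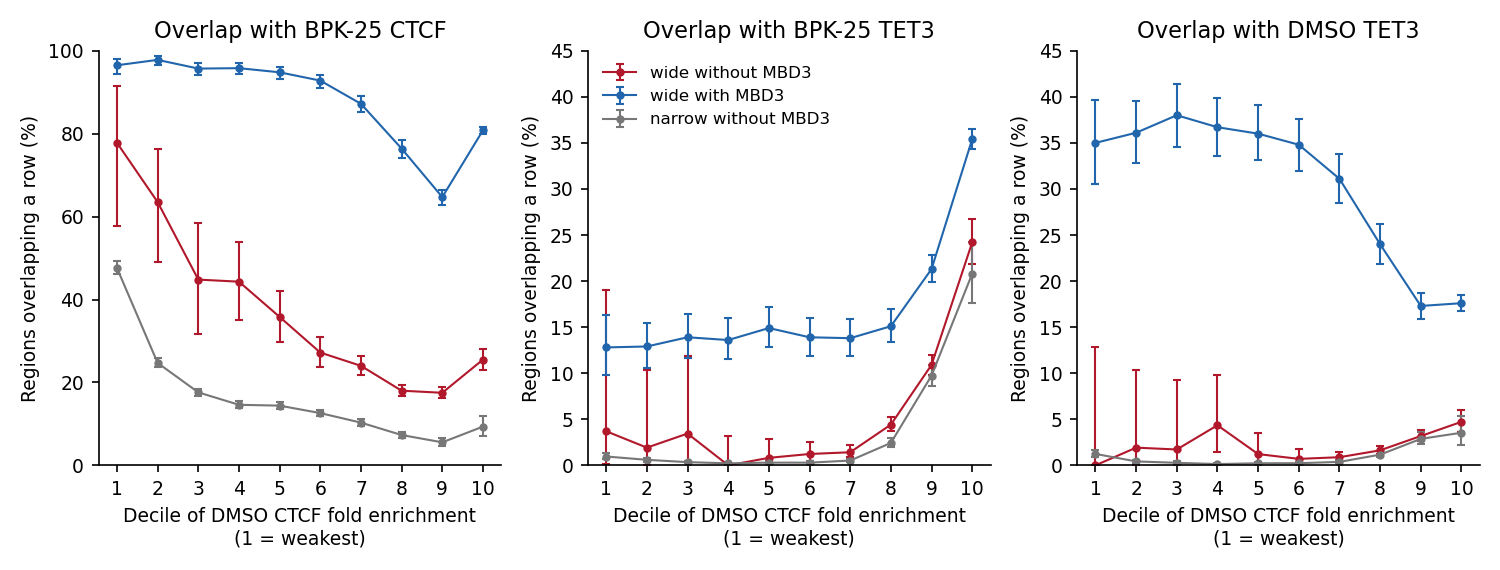
Share of CTCF peaks (percent) overlapping a BPK-25 CTCF row, a BPK-25 TET3 row or a DMSO TET3 row, by decile of DMSO CTCF fold enrichment, for wide sites without MBD3, wide sites with MBD3 and narrow sites without MBD3. Bars are exact 95% intervals for counting error; for BPK-25 TET3 the wide sites without MBD3 reach 24.2% in decile 10, against 4.72% for DMSO TET3.

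TET3 sat on the CTCF summit itself. Of the 829 sites with a BPK-25 TET3 row, 777 (93.7%) had the TET3 summit within 100 bp, at a median distance of 13 bp over all 829 (quartiles 6 and 27). Of the 240 sites with a DMSO TET3 row, 175 (72.9%) did, with a median of 45 bp (20 and 110). For wide peaks with MBD3 these distances were 19 bp for BPK-25 TET3 and 149 bp for DMSO TET3. The TET1 rows of DMSO cells were also central, with 123 of 163 summits (75.5%) within 100 bp and a median distance of 50 bp (21.5 and 99). At those 123 summits the DMSO TET1 pileup had a median of 8.12 times its genome background and a fold enrichment of 4.21. The TET3 pileups were modest beside those of CTCF. At the 777 summits the BPK-25 TET3 pileup had a median of 9.12 times its genome background (7.29 and 11.5), with a fold enrichment of 5.29. At the 175 summits the DMSO TET3 pileup had a median of 8.25 times (6.49 and 9.43), with a fold enrichment of 4.02. DMSO CTCF at these same sites had medians of 180 and 148 times its genome background.

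The sites of TET3 in the 2 treatments were in part the same. Both lists had a row at 76 sites, which is 9.17% of the 829 sites with BPK-25 TET3 and 31.7% of the 240 with DMSO TET3. In narrow peaks without MBD3 the same shares were close to these, at 13.6% and 30.2%. In wide peaks with MBD3 they were 42% and 41%. They were not computed over all CTCF peaks. Among the wide sites without MBD3, BPK-25 TET3 alone had a row at 753 sites, and DMSO TET3 alone at 164. The median DMSO CTCF fold enrichment was 73.3 (54.9 and 95.6) at the 753 sites, 61.9 (44.4 and 82) at the 164 and 68.3 at the 76. In wide peaks with MBD3 the classes lay further apart, with 115 at 2490 sites of BPK-25 TET3 alone and 17.4 at 2591 sites of DMSO TET3 alone. The calling limits of the TET3 lists were close to each other, as given above.

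BPK-25 TET3 shares barely differed between wide sites without MBD3 that had a BPK-25 CTCF row and those that had none. The share was 8.16% (7.04 to 9.39) of the 2170 sites with such a row and 8.21% (7.62 to 8.84) of the 7938 without, and the intervals overlap. For DMSO TET3 it was 1.66% (1.16 to 2.29) and 2.57% (2.23 to 2.94). The sites with a BPK-25 CTCF row were wider (median 636 bp against 595 bp), slightly less enriched in DMSO (42.7 against 47.2), nearer to MBD3 (7082 bp against 15077 bp) and of higher local background (1.74 against 1.47 times the genome background). The part of these features in the shares was not tested. In wide peaks with MBD3, BPK-25 TET3 was found at 22.6% (22 to 23.3) of those with a BPK-25 CTCF row and 28.7% (27.1 to 30.3) of those without.

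The number of summits went with some of the shares. Sites with 2 or more summits overlapped a BPK-25 CTCF row in 26.6% (25.1 to 28.2), and sites with 1 summit in 19% (18.1 to 20). By shared summits the values were 8.2% and 8.42%, which overlap in their intervals. BPK-25 TET3 had the opposite order, at 6.27% (5.46 to 7.16) of sites with 2 or more summits and 9.12% (8.45 to 9.83) of sites with 1. The DMSO CTCF fold enrichment had a median of 38.9 in sites with 2 or more summits and 49.7 in sites with 1.

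Counted by 1 bp overlap, the BPK-25 CTCF share followed the distance to the nearest DMSO MBD3 row. It was 39.9% (34.6 to 45.3) at gaps of up to 500 bp, 37.1% at 501 to 1000 bp, 28.3% at 1001 to 5000 bp, 22.3% at 5001 to 20000 bp, 14.4% at 20001 to 100000 bp and 11.6% (9.41 to 14) beyond. BPK-25 MBD3 shares over the same steps were 44%, 41.5%, 30.3%, 23.4%, 15.6% and 12%. By summits within 100 bp the BPK-25 CTCF shares were 12.9%, 14.6%, 10.6%, 8.62%, 5.79% and 6.17%. In narrow peaks without MBD3 the BPK-25 CTCF overlap also fell, between 40.8% in the nearest class and 5.77% in the farthest. At the wide sites without MBD3 the median DMSO CTCF fold enrichment was 31 in the nearest class and 45.4 in the farthest. The local background there was 1.74 and 1.13 times the genome background. Their part in the order was not tested. Within decile 10, the BPK-25 CTCF share was 34.2% (28.8 to 40) of 295 sites within 5000 bp of MBD3 and 18.7% (15.4 to 22.5) of 491 sites beyond 20000 bp. In decile 8 it was 25.1% (22.2 to 28.2) and 12.1% (10.3 to 14.1). BPK-25 TET3 shares over the same 6 steps were 9.09%, 9.34%, 8.41%, 9.59%, 7.16% and 4.76% (3.37 to 6.5), and DMSO TET3 shares 5.28% (3.16 to 8.21), 2.75%, 2.85%, 2.23%, 2.05% and 1.54% (0.799 to 2.68). Within each of deciles 8, 9 and 10 the BPK-25 TET3 share was higher near MBD3. In decile 8 it was 6.13% (4.6 to 7.98) within 5000 bp and 2.83% (1.95 to 3.95) beyond 20000 bp. In decile 9 it was 11.6% (9.53 to 14) and 9.04% (7.55 to 10.7), and in decile 10 it was 27.1% (22.1 to 32.6) and 19.1% (15.8 to 22.9). The intervals overlap in deciles 9 and 10.

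**Figure D5:**
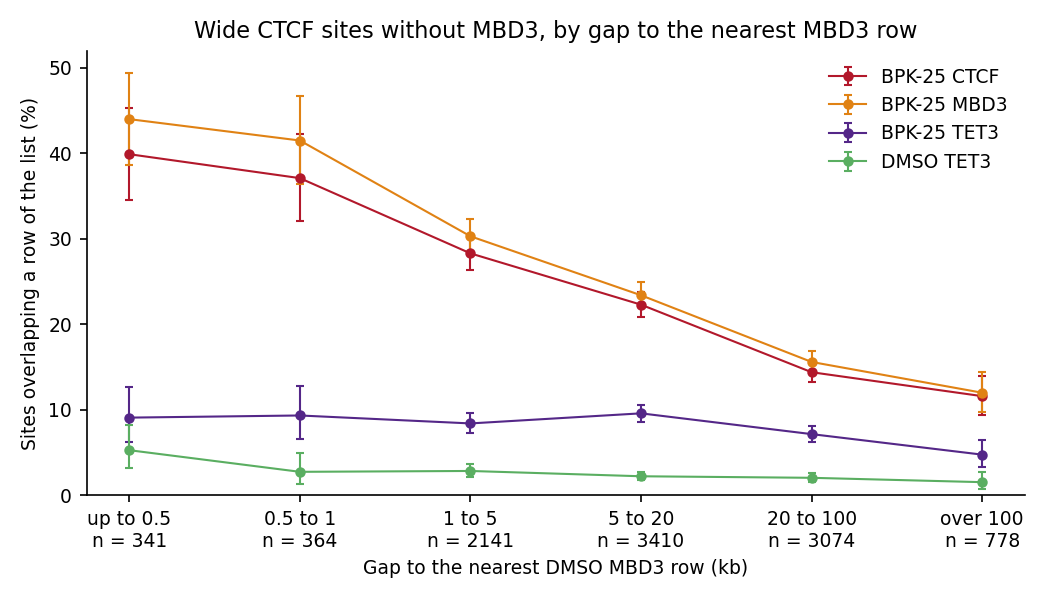
Share of the 10108 wide sites without MBD3 (percent) overlapping a row of BPK-25 CTCF, BPK-25 MBD3, BPK-25 TET3 or DMSO TET3, by gap to the nearest DMSO MBD3 row (kb). Bars are exact 95% intervals for counting error. BPK-25 CTCF ranges between 39.9% in the nearest class and 11.6% in the farthest, and DMSO TET3 between 5.28% and 1.54%.

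The strongest wide sites without MBD3, ranked by the authors' -log10 q, had far lower CTCF pileups in BPK-25 where a BPK-25 CTCF row was called at all. On chromosome 5, 176540638 to 176541282, the CTCF pileup was 8.15 times the genome background in BPK-25, at a summit 206 bp away, and 581 times in DMSO. The BPK-25 MBD3 summit there lay 2 bp from the DMSO CTCF summit, with a pileup of 14 times. On chromosome 22, 29641437 to 29642265, CTCF had 10.9 times in BPK-25 and 545 times in DMSO. On chromosome 17, 17794202 to 17794915, it had 16.3 times in BPK-25 and 549 times in DMSO. The sites on chromosome 6, 73121794 to 73122316, and chromosome 20, 47950256 to 47950998, also carried BPK-25 TET3, at 18.2 and 18.8 times its genome background. Their CTCF pileups were 10.5 and 5.43 times in BPK-25, against 532 and 425 times in DMSO.

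Other sites of the same strength had no BPK-25 CTCF row within 1000 bp. Chromosome 1, 66708248 to 66708828, had the highest CTCF fold enrichment of all wide sites without MBD3, 291 in DMSO. It carried BPK-25 MBD3 at 7.79 times and TET3 at 12.2 times the genome background in BPK-25 and 10 times in DMSO. Chromosome 1, 144917841 to 144918437, and chromosome 17, 35730404 to 35730933, had DMSO CTCF fold enrichments of 82.1 and 135 and carried BPK-25 TET3 at 19.4 and 20.1 times. Chromosome 2, 110303527 to 110304071, with a fold enrichment of 175, was among the 8 sites with a BPK-25 TET1 row. Chromosome 7, 155391206 to 155391859, had a fold enrichment of 128 and was in no other list. The TET3 row was thus present at 3 of these 5 sites in BPK-25 and at 1 in DMSO.

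The widest sites were runs of several summits. Chromosome 4, 6332508 to 6334466, covered 1959 bp, had 3 summits and was enriched 86-fold. Its BPK-25 CTCF and BPK-25 MBD3 summits lay 1305 and 1319 bp from the DMSO CTCF summit. Chromosome 19, 49727890 to 49729796, covered 1907 bp with 5 summits, and its BPK-25 TET3 summit lay 9 bp from the highest of them. Chromosome 1, 206898532 to 206900396, covered 1865 bp with 3 summits. Chromosome 19, 4207238 to 4209040, and chromosome 17, 37790102 to 37791889, had 5 summits each over 1803 and 1788 bp.

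The most significant BPK-25 TET3 rows lay on strong CTCF sites. Chromosome 4, 148787839 to 148788405, had a TET3 fold enrichment of 13.3 in BPK-25 and 6.08 in DMSO, both 11 bp from a CTCF summit of 160 in DMSO. It was also in the DMSO TET1 list, at 6.08, and the DMSO TET2 list, at 3.84. Chromosome 1, 11097577 to 11098194, was next in order, with a BPK-25 TET3 fold enrichment of 12.5. The others were chromosome 12, 109701738 to 109702639, at 11.7, and chromosome 17, 31325291 to 31325870, at 10.5. None of these 3 had a DMSO TET3 row. The site on chromosome 20 that ends at 47950998, named above, had 11.9 in BPK-25 and 4.71 in DMSO.

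The most significant BPK-25 MBD3 rows, in contrast, overlapped mostly weak CTCF sites, with BPK-25 MBD3 summits 131 to 2224 bp from the DMSO CTCF summit. Chromosome 16, 1786048 to 1786997, had a CTCF fold enrichment of 13.9 in BPK-25 and 2.36 in DMSO, the lowest of all wide sites without MBD3, with BPK-25 MBD3 at 14.3. Chromosome 7, 149171595 to 149172266, had CTCF at 10.8 in BPK-25 and 20.9 in DMSO, and chromosome 19, 17444147 to 17444763, at 10.2 and 8.32. On chromosome 22, 22649584 to 22650255, and chromosome 16, 598124 to 599079, the overlapping BPK-25 CTCF and BPK-25 MBD3 rows reached in from outside. The BPK-25 CTCF summits lay 1658 and 1991 bp from the DMSO CTCF summit, and the BPK-25 MBD3 summits 1638 and 2224 bp. Of these 5 sites, 3 had a DMSO MBD3 row within 1000 bp, at gaps of 555, 242 and 581 bp.

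The site in most lists was on chromosome 20, 58090237 to 58091113. Its fold enrichments were 5.37 for BPK-25 CTCF, 5.23 for BPK-25 MBD3, 10.2 for BPK-25 TET3 and 7.51 for DMSO TET3. DMSO TET1 had 15.9 there and DMSO TET2 13.6, and the BPK-25 TET1 and BPK-25 TET2 lists had no row. Chromosome 12, 122607628 to 122608679, was in 5 other lists, all at fold enrichments of 4.87 or less. Chromosome 9, 66834848 to 66835658, was also in 5, but its DMSO local background was 37.8 times the genome background, the 1 site above 20 times, and its CTCF fold enrichments were 1.28 in BPK-25 and 2.47 in DMSO. This site supplied 1 of the 8 sites with BPK-25 TET1 and 1 of the 2 with BPK-25 TET2.

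Wide sites without MBD3 stood more alone than those with it. A neighbouring CTCF peak lay within 1000 bp of 1159 sites (11.5%), against 29.5% of wide peaks with MBD3, and 18.6% had none within 20000 bp, against 9.88%. The gap to the nearest CTCF peak had a median of 6622 bp, against 3208 bp. That neighbour carried MBD3 at 31.6% of the wide sites without MBD3 and at 50.6% of the wide peaks with it. The neighbour was itself a wide site without MBD3 in 14.3%. Narrow peaks without MBD3 stood at least as alone, so this was not particular to the wide sites. Of these narrow peaks, 10.3% had a neighbour within 1000 bp and 25.4% had none within 20000 bp. Their median gap was 8237 bp, and the nearest peak carried MBD3 at 29.8% of them.

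They were unevenly spread over chromosomes. Their share of all CTCF peaks ran from 7.8% (7.01 to 8.65) on chromosome 19 to 14.6% (13.5 to 15.7) on chromosome X. Of the wide peaks, 21.1% (19.1 to 23.2) lacked MBD3 on chromosome 19 and 24.3% on chromosome 22, against 48.3% on chromosome 18 and 51% (48 to 54) on chromosome X. The BPK-25 CTCF share of these sites was 40.6% on chromosome 22, 38.1% on chromosome 19 and 33.5% on chromosome 17, and 15.1% on chromosome 3. The median CTCF fold enrichment on these chromosomes stayed between 43.6 and 47.6. BPK-25 TET3 shares ran from 5.21% on chromosome X to 12.1% on chromosome 18 and did not follow the BPK-25 CTCF order, with 6.42% on chromosome 22. The BPK-25 CTCF and BPK-25 TET3 shares were not computed over all CTCF peaks of each chromosome. Whether their orders are particular to these sites cannot be said.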

How the data were processed

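Paired-end ChIP-seq libraries from HEK293T cells and derived TET1-Flag, TET2-Flag and TET3-Flag cells were represented by 10 deposited narrowPeak lists. From the list names in the labels, each list was treated as 1 call over all replicates of its group, with input as control. The TET2-Flag DMSO list is named for 3 replicates, whereas 2 are labelled, and it was used as deposited. The submitters' processing notes name MACS2 2.1.2, Bowtie2 2.3.4, FastQC 0.11.7, bedtools 2.25.0, SAMtools 1.9 and the hg19 build, without roles or settings. The deposited lists give, as the authors' values, 3 numbers at each summit: -log10 p-value, -log10 q-value and fold enrichment, a ratio of pileup over local background. Those lists also hold a score per row and the summit offset, of which the score was not used here. The lowest -log10 q of each list was 1.3 or 1.31, that is a q of 0.05. Total reads per library were not used here. Coordinates are hg19 and 1-based.

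Rows that overlapped or touched were merged, and a merged peak kept the values of its summit of highest -log10 q. The pileup n and the local background were obtained by solving 2 equations, fold enrichment as (n + 1) over (background + 1) and the Poisson -log10 p. Of the pileups below 200, 100% lay no further than 0.02 from a whole number. Solver and overlap routines were tested on simulated data. Overlap needed 1 bp, and shared summits lay within 100 bp. Shares carry exact Clopper-Pearson 95% intervals for counting error only, and 0 overlaps allow a share of up to 3 counts. Deciles of DMSO CTCF fold enrichment were set over all 98272 peaks. With 1 pooled list per group no test was run.

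The sites and the lists compared were chosen with earlier results of these data known. Sites were named by rule: the 5 of highest DMSO -log10 q with a BPK-25 CTCF row, the 5 highest with none within 1000 bp, the 5 widest, the 5 of highest BPK-25 TET3 and BPK-25 MBD3 -log10 q, the 5 in most lists, and 2 on each side of the width limit. Alternatives were widths of 400, 600 and 750 bp, rows within 500 bp merged, no MBD3 row within 1000 bp, a -log10 q of at least 5 or 10, summits within 200 bp, 50% of the site covered, and leaving out sites under a -log10 q of 10 or whose local background was at least 20 times that of the genome. Motifs, sequence and genes were not analysed here. Python 3.11.15, numpy 2.4.6, pandas 2.3.3, scipy 1.17.1 and matplotlib 3.10.9 were used.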

Additional observations from a re-analysis of the deposited data

Results flagged for a closer look

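The TET3 and TET1 lists moved in opposite directions between treatments at wide CTCF sites without MBD3. A TET3 row overlapped 829 of these sites in BPK-25 and 240 in DMSO, a difference of 589 sites. That is 8.2% of the sites in BPK-25, against 7.57% of all CTCF peaks, and 2.37% in DMSO, against 8.07% of all CTCF peaks. By this 1 bp overlap the DMSO share stood further from that of all peaks. Narrow peaks without MBD3 also had a low DMSO share, 0.59%. By summits within 100 bp both shares stood away from those of all peaks. They were 7.69% against 5.9% in BPK-25 and 1.73% against 3.8% in DMSO. With 50% of the site covered the TET3 order was not kept, at 0.218% in BPK-25 and 0.287% in DMSO, small shares without a computed interval. A TET1 row overlapped 8 sites in BPK-25 and 163 in DMSO, so the number fell by 155. Over all CTCF peaks the TET1 count was 186 in BPK-25 (0.189%) and 3958 in DMSO (4.03%), and the whole TET1 list had 552 rows in BPK-25 and 6355 in DMSO. The low TET1 count in BPK-25 is thus shared with all CTCF peaks and is not a result about these sites. The difference between TET3 and TET1 was not tested, since each line and treatment has 1 pooled list. The TET1 genome background was 1.75 fragments in BPK-25 and 1.85 in DMSO, and that of TET3 1.65 and 1.7. Summits were called from 6.85 times the genome background in BPK-25 TET1 and 5.95 times in DMSO TET1, at the median local background of these sites, and from 6.08 and 5.9 times in BPK-25 TET3 and DMSO TET3.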

How the results depend on the processing

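Of 110 alternative values, 68 stayed within 1.5 times a count or within the interval of the value reported, and 42 moved. These values cannot be negative, so no reversal of sign was possible, and orders between lists were not scored. Widths of at least 400, 600 and 750 bp gave 17525, 5135 and 1515 sites. Over these widths the BPK-25 CTCF share was 18.5%, 26.3% and 37%, the BPK-25 MBD3 share 19.7%, 28.4% and 38.5%, and the BPK-25 TET3 share 7.23%, 9.43% and 9.11%, while at 750 bp DMSO TET1 had 1.32% and DMSO TET2 0.33%. With no MBD3 row within 1000 bp, BPK-25 CTCF had 20.2% and BPK-25 MBD3 21.5%. A -log10 q of at least 5 in the other list left BPK-25 CTCF 11.6%, BPK-25 MBD3 12.9%, BPK-25 TET1 0.00989% against DMSO TET1 0.307%, DMSO TET2 0.0198%, and BPK-25 TET3 4.9% against DMSO TET3 0.524%. At 10 or more these were 4.06%, 4.84%, 0.00989% against 0.0495%, 0% for BPK-25 TET2 against 0.00989% for DMSO TET2, and 1.2% for BPK-25 TET3 against 0.0396% for DMSO TET3. Summits within 200 bp gave 11.6% for BPK-25 CTCF, 12.9% for BPK-25 MBD3 and 2.02% for DMSO TET3. With 50% of the site covered, BPK-25 CTCF had 6.45%, BPK-25 MBD3 7.34%, BPK-25 TET1 0% against DMSO TET1 0.257%, and DMSO TET2 0.00989%. BPK-25 TET3 had 0.218% there against DMSO TET3 0.287%, the 1 setting in which the TET3 order was not kept. No interval was computed for these small shares. Merging rows within 500 bp gave a median gap of 7215 bp to the nearest CTCF peak. Median pileups over genome background stayed in their intervals, which for BPK-25 TET2 rests on 2 sites, with 48.2 times and, without the site of high local background, 15.3 times.

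Stricter thresholds and coverage lower shares by construction. No paired analysis was possible because each group has 1 pooled list and the result comes from no test; leaving out a replicate was not possible for the same reason. Depth limits what was called: at the median local background of these sites, enrichment under 3.88 times the genome background in BPK-25 CTCF, 4.05 times in DMSO MBD3, 6.08 times in BPK-25 TET3 and 5.9 times in DMSO TET3 gave no row.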
